A study of Arabidopsis thaliana with 12 samples.

Results

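This comparison set the 3 arrays of the Arabidopsis double mutant sco3phyb against the 3 arrays of the reference line Col-0, which are 6 of the 12 Affymetrix ATH1 arrays in the series. The arrays were taken by their genotype labels, and the combined change of the double mutant was read across all 22746 probe sets that are not controls. The other 6 arrays hold the single mutants sco3 and phyb, with 3 biological replicates each, and were used to set the double mutant beside each parent genotype. All seedlings were 4 days old and were raised on Murashige Skoog agar with 16 h of light and 8 h of dark in every group. The labels give no batch, so a batch of sowing or of arrays that goes with genotype cannot be told apart from it. The labels name no allele of sco3 or phyb and no part of the seedling. In RNA of seedlings, fewer cells of a type and less RNA per cell cannot be told apart.

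PHYB encodes phytochrome B, the main receptor for red light in light-grown seedlings, which restrains stem elongation and promotes chloroplast development, in large part by removing transcription factors of the PIF family. SCO3 encodes a protein that chloroplasts of the cotyledons need to develop normally, and it has been linked to microtubules and to the surface of peroxisomes. A chloroplast is built from subunits made on its own genome together with many more that are encoded in the nucleus, imported and assembled with pigments, so both genomes are described here.

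The probe annotation gave 1 gene name to 13513 of the probe sets (59.4%), and no probe set carried the name of SCO3 or PHYB, so the transcripts of the mutated genes were not analysed here. Few tissue markers had a named probe set: 1 of 7 for mesophyll, 3 of 7 for guard cells, 2 of 5 for root hairs and 1 of 7 for seeds. RCA, the activase of Rubisco in green tissue, stood at 12.95 ± 0.06 in Col-0 and 13.10 ± 0.02 in sco3phyb (log2 signal, SD, n = 3), near the top of the measured range of 1.44 to 13.5. The root hair genes EXPA7 and EXPA18 were measured in both genotypes and were not called, and none of the listed markers of root tip, xylem, phloem or flower had a named probe set. Separate lists held 42 floral and pollen genes, 1 called higher and 2 lower, and 3 vascular genes, none called. Without Col-0 replicate 3, 1 of the 42 was called higher and 4 lower. When the array medians were made equal, 0 of the 42 were called higher and 7 lower. Of the 42, 24 lay below the lower quartile of all probe sets on every Col-0 and sco3phyb array. Col-0 replicate 3 stood apart from the other arrays, and correlated across probe sets with its own group at a mean of 0.978, where its fellow Col-0 arrays reached 0.986. Where it moves a count of a gene list by more than 1.5 times, the count without it stands beside the count.

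**Figure D1:**
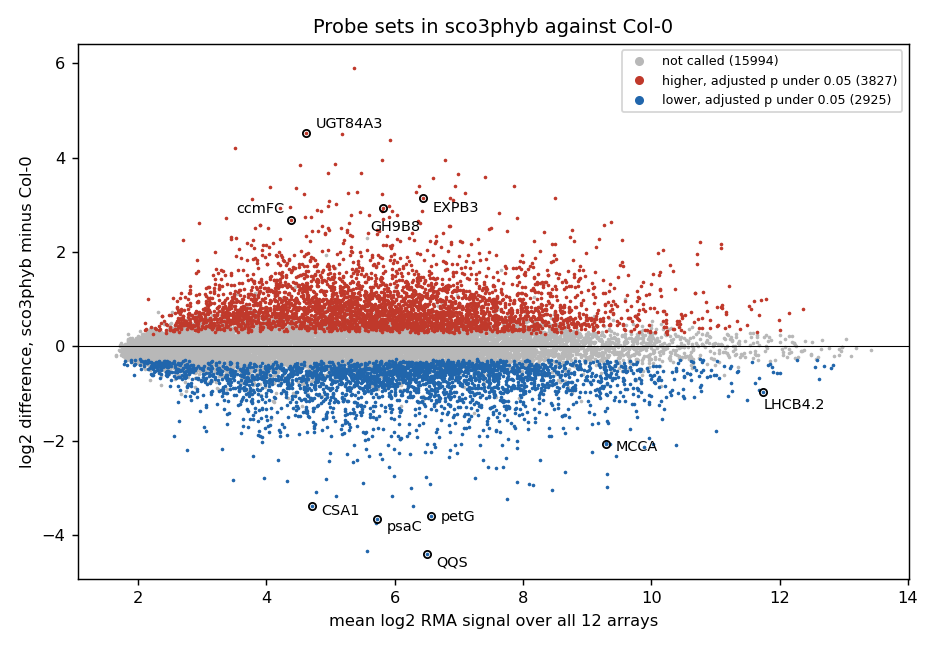
Each point is 1 of 22746 probe sets, with its mean log2 signal over all 12 arrays on the x axis and the log2 difference of sco3phyb minus Col-0 on the y axis. Red points (3827) were higher and blue points (2925) lower at an adjusted p under 0.05, grey points were not called, and circles mark 10 genes described in the text.

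Between sco3phyb and Col-0, 6752 of 22746 probe sets (29.7%) were called at an adjusted p under 0.05, 3827 of them higher (16.8%) and 2925 lower (12.9%) in the double mutant. The typical change was moderate, with a median absolute log2 difference of 0.69 among the called probe sets, which is 1.62-fold. A change of at least 2-fold was called in 7.59% of all probe sets, and one of at least 4-fold in 232 probe sets, 156 of them higher and 76 lower. The 3 values of each genotype did not overlap in 9461 probe sets (41.6%). The balance of directions depended on the scaling of the arrays: 56.7% of the calls were higher as deposited, 49.9% after a further quantile normalization and 36.6% when each array was centred on its own median. The median array signal was 4.71 ± 0.01 in sco3phyb and 4.59 ± 0.03 in Col-0 (log2, SD, n = 3; exact permutation test, two-sided, p = 0.1, the smallest p that 3 against 3 arrays allow). Centring shifted every log2 difference by -0.13, from a median of -0.02 over all probe sets to -0.15, and the counts that changed most under it stand beside the gene lists below. Beside its parents, the double mutant differed from phyb in 3398 probe sets (14.9%) and from sco3 in 6662 (29.3%). These comparisons share the sco3phyb arrays, and their values are given side by side.

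Many genes of the plastid genome were lower in sco3phyb, among them most of those for photosystem II and the cytochrome b6f complex. Of 69 measured plastid genes, 37 fell and 2 rose against Col-0, with a median log2 difference of -0.59, where 29.7% of all probe sets were called and their median was -0.02. The cytochrome b6f complex passes electrons between the photosystems, and in its list, which also counts the heme attachment gene ccsA, 6 of 7 genes fell and none rose (median -1.39). petG, a small subunit of that complex, measured 9.20, 8.63 and 8.37 in the Col-0 arrays and 5.65, 4.62 and 5.12 in the sco3phyb arrays (log2 signal, replicates 1 to 3). It fell by 3.60 ± 0.29 on the log2 scale (± the standard error of the fit; adjusted p = 2.82e-06), and every double mutant array lay far below every Col-0 array. petL and petN, 2 further small subunits, fell by 1.74 ± 0.32 and 1.39 ± 0.31 on the log2 scale (adjusted p = 0.00118 and 0.00453).

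Photosystem I had 4 of 7 genes lower and none higher (median -1.10), counting the assembly factors ycf3 and ycf4. psaC, which carries the terminal iron-sulfur clusters of photosystem I, read 7.41, 7.50 and 8.05 in Col-0 and 4.38, 3.68 and 3.92 in sco3phyb. This log2 difference of -3.66 ± 0.29 (adjusted p = 2.49e-06) separated the genotypes without overlap. psaJ, a small membrane subunit, fell by 2.07 ± 0.20 (adjusted p = 1.12e-05), from 10.55, 10.35 and 10.95 to 8.83, 8.36 and 8.47, again with no overlap. Photosystem II had 9 of 15 genes lower and none higher (median -0.80). Among them psbH, a small phosphoprotein of the complex, read 9.90, 9.77 and 9.03 in Col-0 and 7.74, 7.46 and 7.84 in sco3phyb and fell by 1.89 ± 0.23 (adjusted p = 6.19e-05). psbK and psbT, both small subunits, fell by 1.53 ± 0.12 and 1.49 ± 0.16 (adjusted p = 2.82e-06 and 1.90e-05). Not every photosystem gene followed, and psbC, for an inner antenna protein, and psaB, for a core protein of photosystem I, differed by 0.05 and 0.22 without a call.

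The plastid genes for the NDH complex, which cycles electrons around photosystem I, had 5 of 10 members lower and none higher (median -0.47). ndhE measured 9.34, 9.17 and 8.84 in Col-0 and 6.90, 6.78 and 7.19 in sco3phyb, a log2 difference of -2.16 ± 0.23 (adjusted p = 2.30e-05). ndhG and ndhH fell by 1.77 ± 0.27 and 1.80 ± 0.36 (adjusted p = 0.000349 and 0.00226), and for ndhH the value of Col-0 replicate 3, 4.59, was the lowest of the 3 Col-0 values and still above all double mutant values. The ATP synthase and Rubisco list was divided, with 2 of 7 genes lower and 1 higher (median -0.10; 2 and 0 without Col-0 replicate 3). atpF and atpI, parts of the membrane sector of the ATP synthase, fell by 1.73 ± 0.27 and 1.85 ± 0.32 (adjusted p = 0.000434 and 0.000855). atpH, the ring subunit of the same sector, rose by 0.82 ± 0.24 (adjusted p = 0.0195), and its call was lost without Col-0 replicate 3, sco3phyb replicate 1 or sco3phyb replicate 3 (adjusted p = 0.0642, 0.0889 and 0.0558).

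Genes of the plastid's own expression machinery were less uniform. Of 15 plastid-encoded ribosomal protein genes, 8 fell and 1 rose (median -0.51), led by rpl20, which fell by 2.0 ± 0.32 from 9.46, 9.30 and 8.96 to 7.90, 6.45 and 7.35 (adjusted p = 0.000431). rpl16 and rps18 fell by 1.18 ± 0.21 and 1.09 ± 0.17 (adjusted p = 0.00096 and 0.000356). None of the 4 measured subunits of the plastid-encoded RNA polymerase was called (median -0.06; 1 was called lower without Col-0 replicate 3 and 1 with each array centred), and rpoA read 11.19 ± 0.18 in Col-0 and 11.07 ± 0.17 in sco3phyb (SD, n = 3), with overlapping values.

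Fewer of these genes were called against phyb, and most of those calls were upward. Of the 69 plastid genes, 10 were higher and 3 lower in sco3phyb than in phyb, where 7.76% of all probe sets were higher and 7.18% lower. Against sco3, 36 were lower and 4 higher, where 13.4% of all probe sets were lower and 15.9% higher. petL stood at 6.43 ± 0.38 in phyb, 7.57 ± 0.55 in sco3phyb and 9.32 ± 0.33 in Col-0 (log2 signal, SD, n = 3), and was higher in sco3phyb than in phyb by 1.15 ± 0.32 (adjusted p = 0.028). psbT was higher than in phyb by 0.59 ± 0.16 (adjusted p = 0.0216), while psaC differed from phyb by 0.08 without a call. ccsA went the other way. This gene, for a protein that attaches heme to plastid cytochromes, measured 10.95, 11.13 and 10.53 in Col-0, 10.86 ± 0.09 in phyb and 11.02 ± 0.18 in sco3, but 8.99, 8.63 and 8.76 in the sco3phyb arrays. Its log2 difference in sco3phyb was -2.08 ± 0.16 from Col-0 and -2.07 ± 0.16 from phyb (adjusted p = 1.67e-06 and 3.74e-06), and every double mutant array lay below all 9 other arrays. psbK was lower than in phyb as well, with a log2 difference of -0.97 ± 0.12 (adjusted p = 0.000217).

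**Figure D2:**
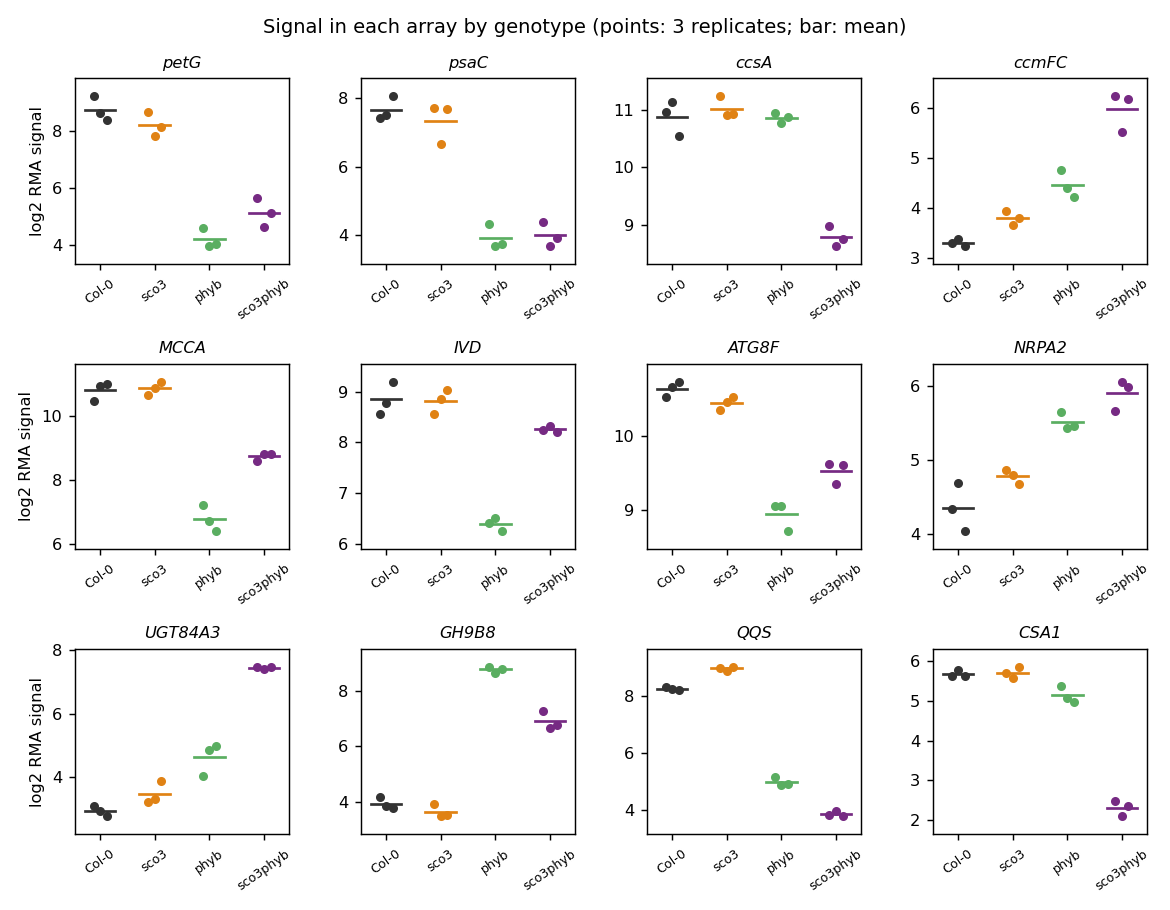
Log2 RMA signal of 12 genes (y axis, each panel on its own scale) in Col-0, sco3, phyb and sco3phyb (x axis), with 1 point per array and a bar at the mean of 3 replicates. ccsA, ccmFC, UGT84A3 and CSA1 in sco3phyb lie outside the range of the 9 other arrays, while petG, MCCA, IVD and ATG8F lie between phyb and Col-0.

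Of 16 measured mitochondrial genes, 4 rose and 1 fell as deposited, 3 rose and 2 fell after a further quantile normalization, and 2 rose and 4 fell with each array centred, so their direction as a group depended on the scaling. The largest change was that of ccmFC, which takes part in attaching heme to cytochrome c in mitochondria. It read 3.29, 3.37 and 3.24 in Col-0 and 6.24, 5.52 and 6.18 in sco3phyb, a rise of 2.68 ± 0.18 (adjusted p = 8.87e-07), and it was also higher than in phyb by 1.52 ± 0.18 (adjusted p = 0.000153). Its probe set is of the kind whose probes match several transcripts, and a copy of much of the mitochondrial genome lies in the nuclear genome, so the source of the signal was not resolved. nad4, a subunit of respiratory complex I, rose by 1.19 ± 0.19 from 6.20, 6.12 and 6.53 to 7.83, 7.06 and 7.52 (adjusted p = 0.000462). In the list of 10 respiratory genes 3 rose and 1 fell (median -0.07), while 1 rose and 3 fell after centring of the arrays.

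Among nuclear genes for the chloroplast, several of pigment synthesis fell and several assembly factors rose. In tetrapyrrole and chlorophyll synthesis 6 of 10 genes fell and none rose (median -0.56). HEME2, a decarboxylase in the shared part of the heme and chlorophyll pathway, measured 9.38, 9.44 and 8.67 in Col-0 and 7.83, 8.24 and 8.22 in sco3phyb. It fell by 1.07 ± 0.18 (adjusted p = 0.00079), with all double mutant values below the Col-0 values. HEMB1, which makes porphobilinogen, and CHLI2, a subunit of the magnesium chelatase, fell by 0.97 ± 0.15 and 0.82 ± 0.18 (adjusted p = 0.000356 and 0.00453). Against sco3 the double mutant was lower in all 3, with log2 differences of -1.61 ± 0.18, -1.26 ± 0.15 and -1.42 ± 0.18. Of 5 antenna genes 2 fell (4 without Col-0 replicate 3; median -0.42), and LHCB4.2, a minor antenna protein of photosystem II, read 12.30, 12.25 and 12.17 in Col-0 and 11.30, 11.11 and 11.40 in sco3phyb and fell by 0.97 ± 0.10 (adjusted p = 2.06e-05). LHCB4.3, a related antenna protein, was lower than in Col-0 and in phyb, with log2 differences of -0.91 ± 0.23 and -0.97 ± 0.23 (adjusted p = 0.00831 and 0.0112). No Calvin cycle gene of 3 was called, and 1 of 5 nuclear photosystem subunits fell (3 with each array centred).

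Nuclear factors that build or serve the NDH complex were among the genes that rose. Of 10 such genes 5 rose and none fell (median 0.57; 3 rose with each array centred and 3 without Col-0 replicate 3). PIFI, a chloroplast protein associated with NDH activity, measured 9.50, 9.61 and 9.08 in Col-0 and 10.20, 10.61 and 10.51 in sco3phyb. It rose by 1.05 ± 0.15 (adjusted p = 0.000259) and was also higher than in phyb and in sco3, by 0.76 ± 0.15 and 0.76 ± 0.15 (adjusted p = 0.00492 and 0.00265). CRR28 and CRR41, both needed for NDH function, rose by 0.85 ± 0.16 and 0.78 ± 0.15 (adjusted p = 0.00153 and 0.00169) and differed from sco3 by -0.10 and -0.11 without a call. Of 5 plastid chaperone and protease genes 2 rose, Cpn60beta2 by 1.66 ± 0.19 and Cpn60beta4 by 1.56 ± 0.25, both subunits of the folding cage of the stroma (adjusted p = 3.77e-05 and 0.000513). Among 10 pentatricopeptide proteins for editing or splicing organelle RNA, 3 rose (median -0.06; without Col-0 replicate 3, 3 rose and 2 fell), with OTP81, an editing factor, going from 2.67, 2.33 and 2.81 to 4.14, 4.03 and 4.27 (rise of 1.55 ± 0.14, adjusted p = 7.23e-06).

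Genes of branched-chain amino acid breakdown and most autophagy genes were lower in the double mutant. All 4 measured genes of branched-chain amino acid breakdown fell (median -1.56), where 29.7% of all probe sets were called. MCCA, the biotin-carrying subunit of methylcrotonyl-CoA carboxylase, measured 10.47, 10.93 and 11.01 in Col-0 and 8.60, 8.81 and 8.80 in sco3phyb and fell by 2.07 ± 0.20 (adjusted p = 1.08e-05). MCCB, the other subunit of this enzyme of leucine breakdown, fell by 1.90 ± 0.16, and ALDH6B2, a dehydrogenase of valine breakdown, fell by 1.22 ± 0.15 (adjusted p = 3.14e-06 and 8.03e-05). IVD, which acts before the carboxylase in leucine breakdown, fell by 0.59 ± 0.16 (adjusted p = 0.015, and 0.0514 without sco3phyb replicate 3). The levels in phyb were lower still: MCCA stood at 6.78 ± 0.41 and IVD at 6.38 ± 0.13 there (log2 signal, SD, n = 3). The double mutant was higher than phyb by 1.95 ± 0.20 for MCCA and 1.88 ± 0.16 for IVD (adjusted p = 3.80e-05 and 1.08e-05), so both genes lay between phyb and Col-0.

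Of 11 autophagy genes, 8 fell and 1 rose (median -0.64; 6 fell and 1 rose without Col-0 replicate 3). Most belong to the ATG8 family, small proteins that are attached to the autophagic membrane. ATG8E read 9.58, 9.61 and 9.66 in Col-0 and 8.12, 8.14 and 8.16 in sco3phyb, a log2 difference of -1.48 ± 0.15 (adjusted p = 1.25e-05). ATG8F fell by 1.12 ± 0.13 (adjusted p = 3.16e-05), and both were higher in sco3phyb than in phyb, by 0.89 ± 0.15 and 0.60 ± 0.13 (adjusted p = 0.00129 and 0.00632). ATG8D rose against this pattern, from 5.40, 5.59 and 6.06 to 6.51, 6.81 and 6.83 (rise of 1.03 ± 0.15, adjusted p = 0.000263). SDP1, the lipase that opens seed oil breakdown, fell by 1.13 ± 0.12 from 8.34, 8.60 and 8.28 to 7.29, 7.17 and 7.37 (adjusted p = 1.62e-05) as 1 of 4 genes of oil mobilisation and the glyoxylate cycle. Of 3 peroxisome genes, PEX4 and FIS1B were called lower (1 of the 3 without Col-0 replicate 3), with log2 differences of -0.44 ± 0.11 and -0.43 ± 0.15 (adjusted p = 0.0085 and 0.0466). The call of FIS1B was lost in 11 of the 12 fits that leave out 1 array, with a log2 difference of -0.23 and an adjusted p of 0.133 without Col-0 replicate 3.

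Genes of sugar and nitrogen metabolism held some of the largest changes. ATSPS4F, a sucrose phosphate synthase, measured 7.64, 7.15 and 5.92 in Col-0 and 10.14, 9.98 and 10.04 in sco3phyb and rose by 3.15 ± 0.31 (adjusted p = 1.39e-05), with no overlap. QQS, an Arabidopsis gene that affects the division of carbon between starch and protein, measured 8.31, 8.24 and 8.19 in Col-0 and 3.80, 3.97 and 3.76 in sco3phyb. It fell by 4.41 ± 0.11 (adjusted p = 2.46e-10), the largest fall of a named gene, and its log2 differences from phyb and sco3 were -1.13 ± 0.11 and -5.12 ± 0.11 (adjusted p = 2.77e-05 and 3.75e-11). Of 19 sugar transport genes 4 rose and 2 fell (median 0.05, and -0.07 with each array centred). Called genes made up 31.6% of this list, near the 29.7% of all probe sets. TMT2, a vacuolar sugar carrier, rose by 1.32 ± 0.14, and SWEET17, a vacuolar fructose channel, rose by 1.25 ± 0.13 (adjusted p = 1.87e-05 and 1.86e-05). SWEET11, a sucrose exporter, rose by 1.27 ± 0.28, which was 0.80 without Col-0 replicate 3. In the nitrogen list, which holds transporters of nitrate and related compounds, 5 of 10 genes rose and none fell (median 0.33). AT1G68570 (NPF3.1) read 5.07, 4.35 and 3.53 in Col-0 and 7.66, 6.79 and 7.13 in sco3phyb, a rise of 2.87 ± 0.36 (adjusted p = 7.61e-05). AT3G21670 (NPF6.4) rose by 2.32 ± 0.28 and AT2G26690 (NPF6.2) by 1.37 ± 0.15 (adjusted p = 5.49e-05 and 3.52e-05).

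Some growth genes of the shade response were higher. Of 5 shade-induced genes 2 rose (median 0.30): HAT2, a homeodomain factor, by 1.31 ± 0.20 and IAA29, a repressor of auxin signalling, by 1.27 ± 0.31 (adjusted p = 0.000323 and 0.00723). HAT2 measured 6.05, 6.49 and 6.26 in Col-0, 7.65 ± 0.27 in phyb (SD, n = 3) and 7.16, 7.68 and 7.87 in sco3phyb, so the double mutant lay near phyb. In the auxin response list of 17 genes 1 rose and 2 fell (median -0.16; 1 and 6 with each array centred, 2 and 3 without Col-0 replicate 3). Its share called was 17.6%, below the 29.7% of all probe sets. WAG2, a kinase that steers auxin export, rose by 0.83 ± 0.12 (adjusted p = 0.00018) but stayed lower than in phyb, with a log2 difference of -0.94 ± 0.12 (adjusted p = 0.000166).

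The wall-loosening list of 29 expansins and xyloglucan enzymes had 5 genes higher and 6 lower (median -0.17; 5 and 10 with each array centred). EXPB3 measured 5.26, 5.27 and 3.76 in Col-0 and 7.98, 7.96 and 7.78 in sco3phyb, a rise of 3.14 ± 0.33 (adjusted p = 2.05e-05), with Col-0 replicate 3 the lowest of all. EXLB1, an expansin-like gene, rose by 2.48 ± 0.18, and EXPA16, an alpha-expansin, fell by 1.67 ± 0.26 (adjusted p = 1.55e-06 and 0.000422). Against phyb, 11 of these 29 genes were lower and 1 was higher in sco3phyb (median -0.54). In the wall synthesis list 5 of 30 genes rose and 2 fell (median -0.01; 4 and 4 with each array centred). Its share called was 23.3%, below the 29.7% of all probe sets. GH9B8, of the family of plant cellulases, measured 4.2, 3.86 and 3.80 in Col-0, 8.76 ± 0.11 in phyb (SD, n = 3) and 7.29, 6.64 and 6.75 in sco3phyb. Its rise of 2.94 ± 0.18 (adjusted p = 4.07e-07) left it below phyb, with a log2 difference of -1.86 ± 0.18 (adjusted p = 2.47e-05), and its relative GH9C2 rose by 2.66 ± 0.19 and differed from phyb by -1.21 ± 0.19 (adjusted p = 1.12e-06 and 0.000959). CSLA03, a mannan synthase, fell by 1.15 ± 0.19 (adjusted p = 0.000635). The TBL family, which includes enzymes that acetylate wall polymers, had 4 of 23 genes higher and 6 lower (median -0.09), with log2 differences of 1.15 ± 0.18 for TBL37 and -1.41 ± 0.17 for TBL30 (adjusted p = 0.000463 and 6.65e-05).

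Tubulins and microtubule proteins were called higher in 4 of 9 genes against Col-0 (median 0.27), but 1 rose and 1 fell with each array centred and 1 rose without Col-0 replicate 3. TUB9 kept the call in each of these, going from 7.44, 7.51 and 7.53 to 8.04, 8.19 and 8.12 (rise of 0.63 ± 0.10, adjusted p = 0.000364). Tubulin genes are close relatives whose probes may share signal, so single members are uncertain. Against phyb, 6 of the 9 were lower and 1 was higher. The IQD and TRM families, which hold microtubule-associated proteins, had 6 of 29 genes higher and 3 lower (median 0.08; 3 and 4 with each array centred, 6 and 5 without Col-0 replicate 3), with a log2 difference of -1.07 ± 0.17 for TRM26 (adjusted p = 0.000473).

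**Figure D3:**
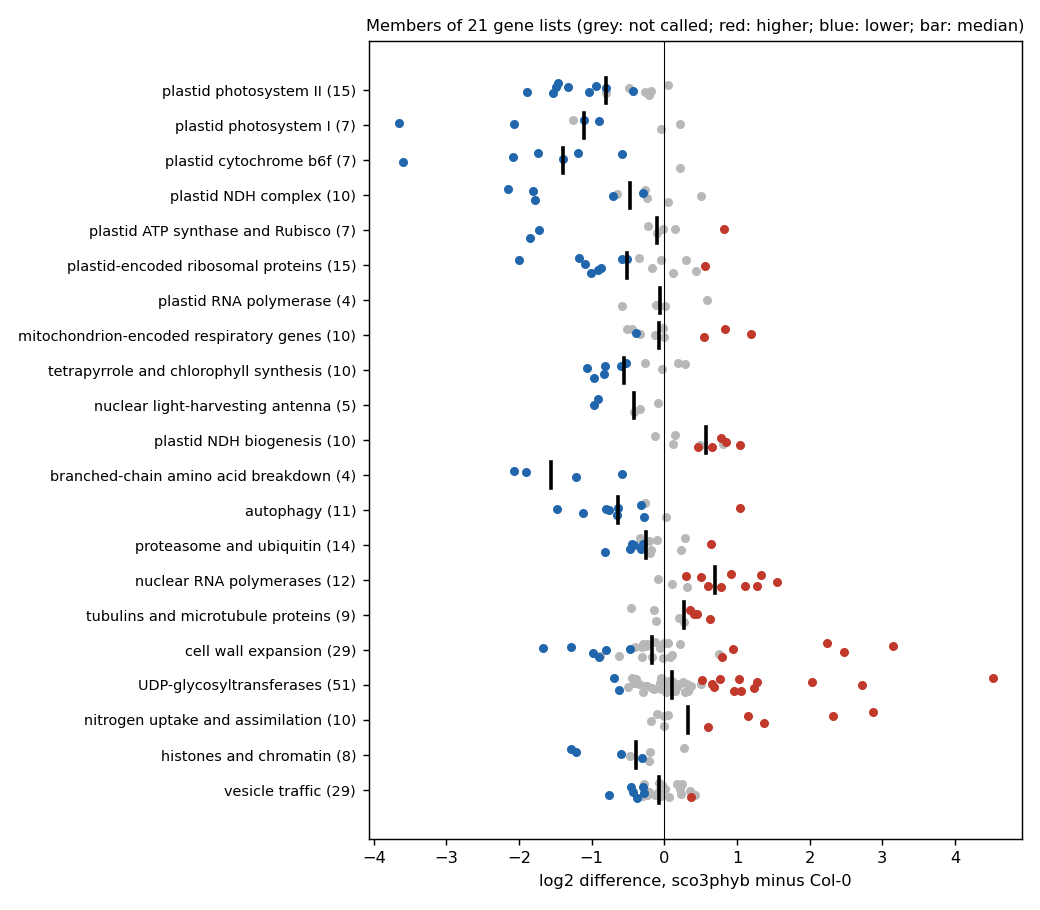
Log2 difference of sco3phyb minus Col-0 (x axis) for each measured member of 21 gene lists (y axis, number of members in brackets). Red and blue points were called higher and lower at an adjusted p under 0.05, grey points were not called, and the bar is the median of the list. All 4 genes of branched-chain amino acid breakdown lie below 0, and 9 of 12 subunits of nuclear RNA polymerases are red.

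Subunits of the nuclear RNA polymerases were higher in 9 of 12 genes and lower in none (median 0.69; 6 with each array centred and 7 after a further quantile normalization). NRPA2, the second largest subunit of polymerase I, which makes ribosomal RNA, measured 4.33, 4.69 and 4.03 in Col-0 and 5.66, 6.06 and 6.0 in sco3phyb, a rise of 1.56 ± 0.16 (adjusted p = 1.85e-05). NRPA1, the largest subunit of the same enzyme, rose by 1.33 ± 0.26, NRPC2 of polymerase III by 1.28 ± 0.16 and NRPB7 of polymerase II by 1.11 ± 0.13 (adjusted p = 0.00198, 6.94e-05 and 6.02e-05). For each of these genes the 3 double mutant values lay above all Col-0 values. PRL, the MCM7 subunit of the replicative helicase, rose by 1.42 ± 0.13 from 4.39, 4.27 and 4.26 to 5.90, 5.64 and 5.65 (adjusted p = 7.71e-06) as 1 of 4 cell cycle genes.

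Histone and chromatin genes were lower in 4 of 8 cases and higher in none (median -0.39). HTB2, a histone H2B gene, measured 7.08, 6.94 and 6.77 in Col-0 and 5.77, 5.62 and 5.76 in sco3phyb. It fell by 1.21 ± 0.12 (adjusted p = 1.19e-05), while sco3 and phyb stood at 6.95 ± 0.08 and 6.87 ± 0.18 (SD, n = 3), so the double mutant lay below all 9 other arrays. HDA15, a histone deacetylase that works with PIF factors, fell by 1.29 ± 0.14 (adjusted p = 2.27e-05) and was at 5.64 ± 0.24 in sco3 and 5.82 ± 0.04 in phyb. Histone H2B genes are close relatives whose probes may share signal, so single members are uncertain. Of 14 genes of the proteasome and ubiquitin list 6 fell and 1 rose (median -0.25; 10 and 0 with each array centred), among them UBC16 and UBC22, which carry ubiquitin and fell by 0.82 ± 0.15 and 0.48 ± 0.10 (adjusted p = 0.000955 and 0.00384). In vesicle traffic 6 of 29 genes fell and 1 rose (median -0.07; 10 and 0 with each array centred, 6 and 2 without Col-0 replicate 3), with log2 differences of -0.76 ± 0.11 for AtSec20, a SNARE protein, and -0.44 ± 0.11 for KEU, which acts on SNAREs in cell division (adjusted p = 0.000183 and 0.0102). The share called in this list, 24.1%, was below the 29.7% of all probe sets.

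Of 51 UDP-glycosyltransferases, which add sugars to small molecules, 12 rose and 2 fell (median 0.10, and -0.02 with 12 and 4 called when each array was centred). The share called, 27.5%, was near the 29.7% of all probe sets. UGT84A3, which joins glucose to hydroxycinnamic acids, measured 3.09, 2.95 and 2.77 in Col-0 and 7.48, 7.42 and 7.46 in sco3phyb, the largest rise of a named gene (4.52 ± 0.23, adjusted p = 9.31e-08). It was also higher than in phyb by 2.82 ± 0.23 and than in sco3 by 3.98 ± 0.23 (adjusted p = 6.68e-06 and 2.68e-07), with no overlap. UGT73C1 measured 2.71, 2.86 and 2.56 in Col-0, 2.79 ± 0.09 in sco3 and 2.55 ± 0.06 in phyb (SD, n = 3), and 5.81, 4.84 and 5.66 in sco3phyb. Its rise of 2.72 ± 0.20 (adjusted p = 1.30e-06) thus set the double mutant alone above the other 9 arrays. The Col-0 values of UGT73C1 were near the lower quartiles of all probe sets on those arrays (2.71, 2.70 and 2.68). The size of its change therefore has an uncertain base. UGT76E11 rose by 2.04 ± 0.28 (adjusted p = 0.000154). Of 14 glutathione transferases 3 rose and 2 fell (median 0.08; 3 and 3 with each array centred, 4 and 1 without Col-0 replicate 3), with GSTU20 up by 2.12 ± 0.36 and GSTU23 by 1.60 ± 0.13 (adjusted p = 0.000667 and 2.30e-06). The 2 that fell were GSTU25 and GSTU26, with log2 differences of -1.03 and -0.71. Without Col-0 replicate 3 that of GSTU26 was -0.39 and not called. GSTU26 also lost its call without Col-0 replicate 2, phyb replicate 3 or any 1 of the sco3 or sco3phyb arrays. The call of GSTU25 was lost without Col-0 replicate 1 or 2 (limma, adjusted p = 0.105 and 0.0716). It was also lost without sco3phyb replicate 1 or 3 (limma, adjusted p = 0.0593 and 0.129). GSTU23 lay below the lower quartile of all probe sets on each Col-0 array, so the size of its change has an uncertain base. Of 22 cytochrome P450 genes 4 rose and none fell (median 0.05, and -0.08 with each array centred), by at most 0.87 ± 0.12 (CYP71B28, adjusted p = 0.000178). Their share called, 18.2%, was below that of all probe sets.

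In the redox list 4 of 16 genes rose and 2 fell (median -0.21; 3 and 4 with each array centred, 5 and 4 without Col-0 replicate 3). PRXR1, a peroxidase, measured 9.06, 9.18 and 9.09 in Col-0 and 10.97, 11.28 and 11.04 in sco3phyb and rose by 1.99 ± 0.12 (adjusted p = 3.48e-07). SAPX, the ascorbate peroxidase of the stroma, rose by 1.40 ± 0.10 from 6.88, 6.85 and 6.81 to 8.24, 8.27 and 8.22 (adjusted p = 1.44e-06), with very little spread in either genotype. The glutaredoxin genes moved in opposite directions, with log2 differences of 0.76 ± 0.10 for GRXC2 and -1.12 ± 0.20 for GRXC1 (adjusted p = 0.000156 and 0.000937). AT5G48570 (FKBP65), a heat-inducible protein of the folding machinery, rose by 1.91 ± 0.25, and CCS, the copper chaperone of superoxide dismutase, rose by 0.88 ± 0.14 (adjusted p = 0.000101 and 0.000548). CCS stood at 9.16 ± 0.16 in sco3 and 7.90 ± 0.31 in phyb (SD, n = 3), so here the double mutant lay near sco3, at 9.08 ± 0.06, and above phyb by 1.17 ± 0.14 (adjusted p = 0.000164).

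Flavonoid and glucosinolate genes were set beside both Col-0 and phyb. Of 7 flavonoid genes 1 rose against Col-0 (UGT78D2, which glycosylates flavonoids, by 0.69 ± 0.15, adjusted p = 0.00403; median 0.02; 1 rose and 1 fell with each array centred), and 4 were lower than in phyb (median -0.54). Of 6 glucosinolate genes 2 rose and 4 were lower than in phyb (1 rose and 1 fell against Col-0 with each array centred, and likewise without Col-0 replicate 3). GTR1, a glucosinolate importer, rose by 1.04 ± 0.18 (adjusted p = 0.000883). BCAT4, which opens the lengthening of methionine side chains, measured 2.94, 2.85 and 2.77 in Col-0, 6.57 ± 0.41 in phyb (SD, n = 3) and 3.55, 3.43 and 3.35 in sco3phyb, with a log2 difference of -3.13 ± 0.19 from phyb (adjusted p = 6.22e-07). Against Col-0 it differed by 0.59 ± 0.19 (adjusted p = 0.036), a call lost when any 1 of the 6 arrays of these genotypes was left out, with an adjusted p of 0.0543 to 0.109. HCT, of lignin precursor synthesis, rose by 0.61 ± 0.14 (adjusted p = 0.00501), 1 of 3 genes higher and none lower among 12 of the phenylpropanoid list, which also counts UGT84A3 (median 0.11; 3 and 1 with each array centred).

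Stress and hormone lists were mixed. The cold-regulated gene COR27, which also ties light to the clock, rose by 1.88 ± 0.24 from 2.56, 2.47 and 2.56 to 4.12, 4.44 and 4.67 (adjusted p = 8.86e-05), and RD2 rose by 0.68 ± 0.14 (adjusted p = 0.00219), within a list of 6 abscisic acid, cold and drought genes with 3 higher and none lower (median 0.85). COR27 lay below the lower quartile of all probe sets on each Col-0 array, so the size of its change has an uncertain base. Of 9 defence genes 3 fell and 1 rose (median -0.15). WRKY22, a transcription factor of immune signalling, measured 4.85, 5.14 and 4.79 in Col-0 and 3.10, 3.17 and 3.04 in sco3phyb, a log2 difference of -1.82 ± 0.15 (adjusted p = 2.70e-06). CSA1, an immune receptor of the disease resistance type, measured 5.63, 5.77 and 5.64 in Col-0, 5.71 ± 0.15 in sco3 and 5.14 ± 0.21 in phyb (SD, n = 3), against 2.49, 2.09 and 2.35 in sco3phyb, below the lower quartile of all probe sets on each array. Its log2 difference was -3.37 ± 0.14 from Col-0 and -2.84 ± 0.14 from phyb (adjusted p = 2.15e-08 and 8.80e-08). None of the 3 gibberellin and 6 cytokinin genes was called as deposited. With each array centred 1 gibberellin and 2 cytokinin genes were lower, after a further quantile normalization 1 gibberellin gene was, and without Col-0 replicate 3 so was 1 cytokinin gene. The defensin PDF1.4 was the 1 of 8 jasmonate genes to rise, by 1.14 ± 0.24 (adjusted p = 0.00319), and none fell (1 fell with each array centred or after a further quantile normalization). FMA, of the guard cell lineage, was called lower, with a log2 difference of -0.50 ± 0.17 (adjusted p = 0.0444), and without Col-0 replicate 3 the difference was -0.31 (adjusted p = 0.147). Its call was also lost without sco3phyb replicate 1, 2 or 3 (limma, adjusted p = 0.0863, 0.14 and 0.0728). The same held without phyb replicate 1, phyb replicate 2 or sco3 replicate 1 (limma, adjusted p = 0.0511, 0.0561 and 0.0566). Of 10 seed maturation and storage genes 1 was called lower than in Col-0, the cysteine protease CP1, with a log2 difference of -1.66 ± 0.53 (adjusted p = 0.0318), and 5 were lower than in phyb. Without Col-0 replicate 3, 2 of these 10 genes were called higher than in Col-0 and 1 lower, and with each array centred 3 were lower. CP1 measured 5.67, 5.41 and 8.17 in Col-0 and 4.39, 4.75 and 5.12 in sco3phyb, so Col-0 replicate 3 stood above the rest, and without it the difference was -0.78. The call of CP1 was lost in 2 of the 12 fits that leave out 1 array.

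Further families held called members, most of them at no higher a share than the 29.7% of all probe sets. The share called was 27.6% of the serine carboxypeptidase-like genes and 27.3% of the beta-glucosidases and of the bZIP factors. It was lower still in the tetraspanins, and 36.4% (4 of 11) in the family of RALFL27. With each array centred, 2 of those 11 genes were higher and 1 was lower. A share of 4 in 11 is close to that of all probe sets, so none of these counts sets its family above the array as a whole. The 29 serine carboxypeptidase-like genes had 8 higher and none lower (median 0.03; 4 and 3 with each array centred, 6 and 1 without Col-0 replicate 3), with SCPL49 up by 1.43 ± 0.15 (adjusted p = 1.70e-05). Of 22 beta-glucosidases 3 rose and 3 fell (median -0.12; 2 and 6 with each array centred), with log2 differences of 2.01 ± 0.24 for BGLU44 and -0.86 ± 0.15 for BGLU16 (adjusted p = 5.57e-05 and 0.00111). BGLU19 had the largest fall, with a log2 difference of -2.18, which was -1.19 without Col-0 replicate 3. Its call was lost without sco3phyb replicate 1 or sco3phyb replicate 3 (limma, adjusted p = 0.0589 and 0.0515). Among 22 bZIP factors 3 rose and 3 fell (median -0.09; 1 and 6 with each array centred), with log2 differences of 1.07 ± 0.19 for bZIP44 and -1.18 ± 0.20 for BZIP61 (adjusted p = 0.000955 and 0.00067). RALFL27, a peptide signal, fell by 2.42 ± 0.32 from 6.24, 6.0 and 7.01 to 3.95, 4.44 and 3.59 (adjusted p = 0.000123) in a family of 11 with 3 members higher and 1 lower. Tetraspanins had 2 of 15 lower and 1 higher (median -0.15), with a log2 difference of -1.12 ± 0.10 for TET7 (adjusted p = 6.97e-06; none rose and 5 fell with each array centred).

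Several of the largest changes outside the lists fell on genes that the annotation gives by locus alone. Among the 15 largest rises, AT3G44450 went from 4.10, 3.37 and 3.32 to 7.86, 8.05 and 8.00 (rise of 4.38 ± 0.22, adjusted p = 9.31e-08) and AT3G48970 from 5.13, 4.80 and 4.53 to 8.47, 8.29 and 8.40 (rise of 3.57 ± 0.22, adjusted p = 4.41e-07). AT2G27420 rose by 4.50 ± 0.25 and AT4G11190 by 3.94 ± 0.52 (adjusted p = 2.10e-07 and 0.000116), the last with a Col-0 replicate 3 value of 5.53 against 2.76 and 3.21 in the other Col-0 arrays, so that its rise was 4.79 without that array. These 4 genes differed from phyb by no called amount. On the lower side, AT3G56360 went from 9.27, 9.40 and 9.29 to 6.54, 6.61 and 6.18 (log2 difference of -2.88 ± 0.13, adjusted p = 4.26e-08), and OSM34, an osmotin-like protein, fell by 2.79 ± 0.46 (adjusted p = 0.000614). OSM34 read 10.38 in Col-0 replicate 3, and without that array its log2 difference was -2.07. AT3G19515 was low in both genotypes that carry sco3: it stood at 3.35 ± 0.20 in sco3 and 3.35 ± 0.42 in sco3phyb, and at 5.96 ± 0.13 in phyb and 6.44 ± 0.10 in Col-0 (SD, n = 3).

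A set of genes had a level in sco3phyb that neither parent showed. The 3 sco3phyb values lay above all 9 other arrays in 1311 probe sets (5.76%) and below all 9 in 829 (3.64%). By the rule for genes called in the same direction against Col-0, phyb and sco3, the largest rises were those of UGT84A3, AT5G47980, AT1G28600, AT5G15360, AT5G24210 and AT5G55570. AT5G15360 measured 3.02, 3.20 and 2.83 in Col-0, 3.08 ± 0.28 in sco3 and 2.86 ± 0.10 in phyb (SD, n = 3), and 6.26, 6.24 and 5.93 in sco3phyb (rise of 3.13 ± 0.15 against Col-0, adjusted p = 7.57e-08). AT5G55570 rose by 2.85 ± 0.30 (adjusted p = 2.19e-05). The largest falls of this kind were those of QQS, AT5G23830, AT5G05750, AT5G45500, CSA1 and AT5G26270. AT5G45500 measured 7.13, 7.13 and 7.56 in Col-0, 6.77 ± 0.23 in sco3 and 7.23 ± 0.18 in phyb, and 3.90, 3.58 and 4.21 in sco3phyb (log2 difference of -3.38 ± 0.18, adjusted p = 1.65e-07). AT5G23830, at 2.55, 2.38 and 2.61 in sco3phyb, lay below the lower quartile of all probe sets on each array, having fallen by 4.33 ± 0.25 against Col-0 (adjusted p = 2.27e-07).

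Of these 12 genes, 9 lie on chromosome 5, and the chromosomes were therefore compared after the values had been seen. The 3 sco3phyb values lay outside the range of the 9 other arrays in 337 of 2994 named genes of chromosome 5 (11.3%). On the other chromosomes the share ran from 6.8% (chromosome 2) to 8.92% (chromosome 1), and over all 5 it was 8.58%. A gap of at least 1 log2 unit between sco3phyb and the nearest other array was seen in 31 genes, 18 of them on chromosome 5, with 6 above and 12 below. Chromosome 1 held 9 such genes, chromosomes 2 and 4 held 2 each and chromosome 3 held 0. Without Col-0 replicate 3 the count was 33, with 19 on chromosome 5. No test was run on these shares.

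**Figure D4:**
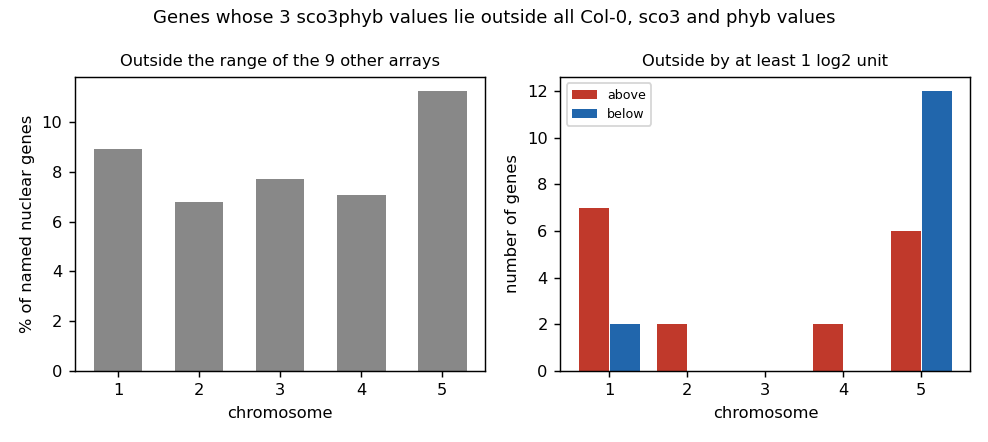
Left, the percentage of named nuclear genes on each chromosome (x axis) whose 3 sco3phyb values lie above or below all 9 arrays of Col-0, sco3 and phyb (y axis). Right, the number of genes that do so by at least 1 log2 unit, in red above and in blue below. Chromosome 5 has the largest share, 11.3%, and 18 of the 31 genes with such a gap.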

How the data were processed

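Total RNA of 4-day-old seedlings was hybridised to Affymetrix ATH1 arrays, 3 biological replicates for each of 4 genotypes. The deposited values are log2 signals, and the submitters' processing notes name RMA and Partek, with no version or genome build given in the sources used here. RMA corrects background, normalizes between arrays and summarises probes, so its scaling assumes similar distributions on all arrays. The labels do not say whether replicates came from separate sowings, so p-values measure the spread between these samples. The number of arrays, not a read depth, limits the precision. Of 22810 probe sets, 64 controls were left out. limma 3.58.1 in R 4.3.3 (lmFit and eBayes) fitted 1 mean per genotype to all 12 arrays with 8 residual degrees of freedom, and p-values were adjusted by Benjamini-Hochberg over 22746 probe sets with a threshold of 0.05. Errors after ± are standard errors of this fit for differences and SDs for group means.

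Genes were named from the platform's probe annotation and updated through the RefSeq gene table, 13285 by identifier and 70 by name; 13513 probe sets had 1 gene, 503 several and 8730 none. The probe set with the highest mean stood for a gene. The text names genes by a rule: of those called without overlap, the 15 largest rises and 15 largest falls, the 6 largest of each direction also called the same way against both single mutants, and up to 4 called members of each list of at least 3 measured genes (2 well expressed ones where none was called). The rule gave 219 genes, and the text names only part of them. psbC, psaB and the markers EXPA7, EXPA18, MUTE and SPCH fall outside the rule, and psbC and psaB were chosen after their values were seen. The members and lists were chosen with earlier results of these data known, and 14 lists were added after the data were seen.

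Replicate numbers are shared between genotypes, but residuals of same-numbered arrays correlated from -0.27 to 0.15, so the numbers did not pair the samples and no block was used. On simulated data with 200 changed probe sets among 22746, this comparison recovered 31.3% of the 1.5-fold, 77.6% of the 2-fold and 97% of the 4-fold changes. Of its 147 calls 10 were false. The simulation changed far fewer probe sets than the 6752 called in the data and gave each probe set 1 spread in all genotypes. Its rates therefore do not carry over directly to the real comparison. Alternatives were a fit of the 2 genotypes alone, array weights, a mean-variance trend with robust fitting, 2 other scalings, removal of the dimmest 40% of probe sets, the replicate block and leaving out each array.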

Additional observations from a re-analysis of the deposited data

Results flagged for a closer look

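Flagged were 3 of the 219 genes given by the naming rule, and a count over all probe sets is not given here. In each, the difference of sco3phyb from Col-0 ran against that of a single mutant from Col-0. The direct contrast between the mutants passed the test of the whole fit. CP1, a cysteine protease, was lower in sco3phyb than in Col-0 by 1.66 ± 0.53 and higher in phyb than in Col-0 by 2.21 ± 0.53, and sco3phyb minus phyb was -3.87 (limma, adjusted p = 0.000375). Col-0 replicate 3 was at 8.17 for CP1 against 5.67 and 5.41 in the other Col-0 arrays, and without it sco3phyb minus Col-0 was -0.78. QQS was lower in sco3phyb than in Col-0 and higher in sco3 than in Col-0 by 0.71 ± 0.11, and sco3phyb minus sco3 was -5.12 (limma, adjusted p = 3.75e-11). IAA20, a repressor of auxin signalling, was lower in sco3phyb than in Col-0 by 0.33 ± 0.11 and higher in sco3 than in Col-0 by 0.50 ± 0.11, and sco3phyb minus sco3 was -0.83 (limma, adjusted p = 0.000106). The call of IAA20 against Col-0 was lost in 4 of the 12 fits that leave out 1 array.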

How the results depend on the processing

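The number of probe sets called between sco3phyb and Col-0 was 6752 and ran from 5386 (the 2 genotypes alone) to 7774 (each array centred on its median) over the other fits and scalings, with 6527 under the replicate block, and from 5317 to 6964 when 1 array was left out. Centring moved the lower count from 2925 to 4927 and the higher count from 3827 to 2847, through the shift of every difference by -0.13. The count against phyb, 3398, was 6505 with array weights and ran from 2218 to 4877 over the 12 fits that leave out 1 array; it was 2218 without phyb replicate 2, 2261 without phyb replicate 3 and 2243 without sco3phyb replicate 3, and the cause was not tested. The count against sco3, 6662, was 9356 with each array centred and 8378 with array weights. It ran from 5125 to 8030 when 1 array was left out. The replicate block changed no count by more than 1.5 times, and 5 of 209 called genes lost their call under it. Of those 209 genes, 34 lost the call in the fit of the 2 genotypes alone, 18 when arrays were centred, 12 after quantile normalization, 6 with array weights and 6 with the trend and robust fit. Leaving out 1 array ended 193 calls over 45 genes. No direction of a called gene reversed under these alternatives. The list counts without Col-0 replicate 3 were added after seeing the data. Probe sets below the lower quartile of the arrays give uncertain sizes of change.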
